A study of Mus musculus with 24 samples.

Results

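Glycolysis and the response to low oxygen were followed through 36 named mouse genes, the enzymes and transporters of glycolysis, the oxygen-sensing proteins and the best known targets of hypoxia-inducible factor. The genes were taken by symbol, and 34 of the 36 had a feature on the array, 1 each, among 22206 gene features. Gpi1 and Eno1 are not analysed here, because no feature carried their symbol in the annotation used. The cells were RAW 264.7, a transformed mouse macrophage line, and RNA was read on 24 Clariom S whole-transcript arrays, 3 in each of 8 groups. Control cells were mock treated. The other resting groups, called low PAC, medium PAC and high PAC, received purified grape proanthocyanidins (PAC, polymers of flavan-3-ols) of low, medium or high degree of polymerization at 15 µg/mL. LPS cells received lipopolysaccharide, the bacterial cell wall component that activates macrophages, at 500 ng/mL, and in the last 3 groups a PAC of low, medium or high polymerization was added 30 minutes before it (low PAC + LPS and so on). RNA was taken after 6 hours, and equal mass doses mean that the molar doses of the 3 fractions differed. The sample labels place PAC before LPS while the design text of the series names LPS first, and the order is given here as in the labels.

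Glycolysis breaks glucose down to pyruvate, which is either passed to the mitochondria or reduced to lactate and exported. Hypoxia-inducible factor (HIF) is a transcription factor whose alpha subunit is hydroxylated by oxygen-dependent prolyl hydroxylases and then degraded, so that it accumulates when oxygen is short. It binds a short core sequence near genes for glucose uptake, glycolysis, vessel growth and mitophagy. Macrophages activated by LPS are known to take up more glucose and to stabilise HIF in normal oxygen.

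All values are on the log2 scale of the deposited table, and a change is a difference between 2 group means on that scale. The deposited values reach 19.26, above the 16 that a 16-bit scanner allows, so the scale was stretched or shifted before deposition and 1 unit need not be a doubling. The group means of 6 members (Aldoa, Gapdh, Pgk1, Pkm, Ldha and Slc2a1) lay above 16 in some group, where changes may be compressed. Tests used limma in a single fit of all 24 arrays, with p-values adjusted by the Benjamini and Hochberg method over the 22206 features within each comparison, and "rose" and "fell" are used for an adjusted p under 0.05. Values with ± are means and standard deviations over 3 arrays. The replicates carry only a number in the labels, so they may be technical, and the p-values then measure only the spread between these samples. In RNA from a whole culture, fewer cells with a transcript and less of it per cell cannot be told apart.

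A silent level was set at 4.73, the 95th percentile of the means of 1414 olfactory and vomeronasal receptor features. The mean of 31 members lay above it in every group. Egln3 and P4ha2 lay below it in every group, and Adm in the 4 resting groups. The arrays had gene medians of 4.86 to 5.06, and replicates correlated at 0.989 to 0.994. Of the measured markers, 8 of 9 for macrophages were above the silent level, reaching 18.61, against 1 of 6 for lymphocytes (Cd4, up to 6.29), 1 of 4 for fibroblasts (Col1a1, up to 6.81) and 0 of 5 for epithelium. In resting cells, 3 arrays stood apart in Il1b, the interleukin-1β gene, at 9.39 (medium PAC replicate 3), 11.92 (high PAC replicate 2) and 9.62 (high PAC replicate 3), against 4.86 to 6.40 on the other 9. Resting results of named genes are therefore also given without these 3 arrays where their call changes, a choice made after the data were seen under which high PAC keeps a single array whose spread is taken from the other groups.

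LPS changed most of the set. Against control, 13 members rose and 12 fell, or 25 of 34, where 33.7% of all features passed the test (13.5% higher and 20.3% lower). The median change was 0.16 over the members and 0.03 over all features. Shares of all features, here and below, were not matched to the members by signal. The gene medians of the arrays, 4.86 to 5.06, lay close to the silent level of 4.73. By contrast, 31 of the 34 members lay above that level in every group. The part of signal level in the difference between such shares was not tested. Those that rose were Hk2, Hk3, Pfkp, Pfkfb3, Slc2a1, Hif1a, Vegfa, Ndrg1, Bnip3, Ddit4, Adm, Ankrd37 and P4ha1. Those that fell were Hk1, Pfkm, Aldoa, Aldoc, Tpi1, Pkm, Ldha, Pdk1, Egln1, Egln3, Bnip3l and Mxi1. The glucose importer Slc2a1, Pfkfb3, whose product activates phosphofructokinase, and 7 of the 12 hypoxia targets outside glycolysis were on the higher side, while the enzymes in the middle and at the end of glycolysis were on the lower side or were not called.

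PAC changed fewer members, and the count differed between the fractions. In resting cells no member passed with low PAC, where 0.0360% of all features did (0.0315% higher and 0.00450% lower). An unadjusted p under 0.05 was found for 2 members, Ndrg1 and Slc16a3, and Ndrg1 was called under 2 other settings of the same tool. With medium PAC 8 members rose and Pfkfb4 fell, against 5.03% of features higher and 6.28% lower (11.3% in all). With high PAC 6 rose and Bnip3l fell, against 3.21% higher and 3.64% lower (6.85% in all). Without the 3 arrays high in Il1b, 7 members were called with medium PAC, losing Tpi1 and P4ha1, and 3 with high PAC, which were Hk3, Slc16a3 and Ndrg1.

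In LPS-activated cells the reference was LPS alone. Low PAC + LPS raised Ndrg1 and called no other member, against 0.149% of features (0.122% higher and 0.0270% lower). Medium PAC + LPS raised 13 members and lowered 4, where 7.17% of features were higher and 7.47% lower (14.6% in all). High PAC + LPS raised 10 and lowered 3, where 4.34% of features were higher and 5.74% lower (10.1% in all). The median change of the members was 0.32 with medium PAC + LPS and 0.19 with high PAC + LPS, against 0.01 for all features in both. These comparisons share the 3 LPS arrays, and those in resting cells share the 3 control arrays, so the fractions are set against each other only in the direct comparisons given further on. The same 3 LPS arrays enter LPS against control. Opposite changes of a gene with LPS and on top of it are therefore not independent. Pgk1, P4ha2, Kdm3a and Higd1a were called in none of the 7 comparisons.

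**Figure D1:**
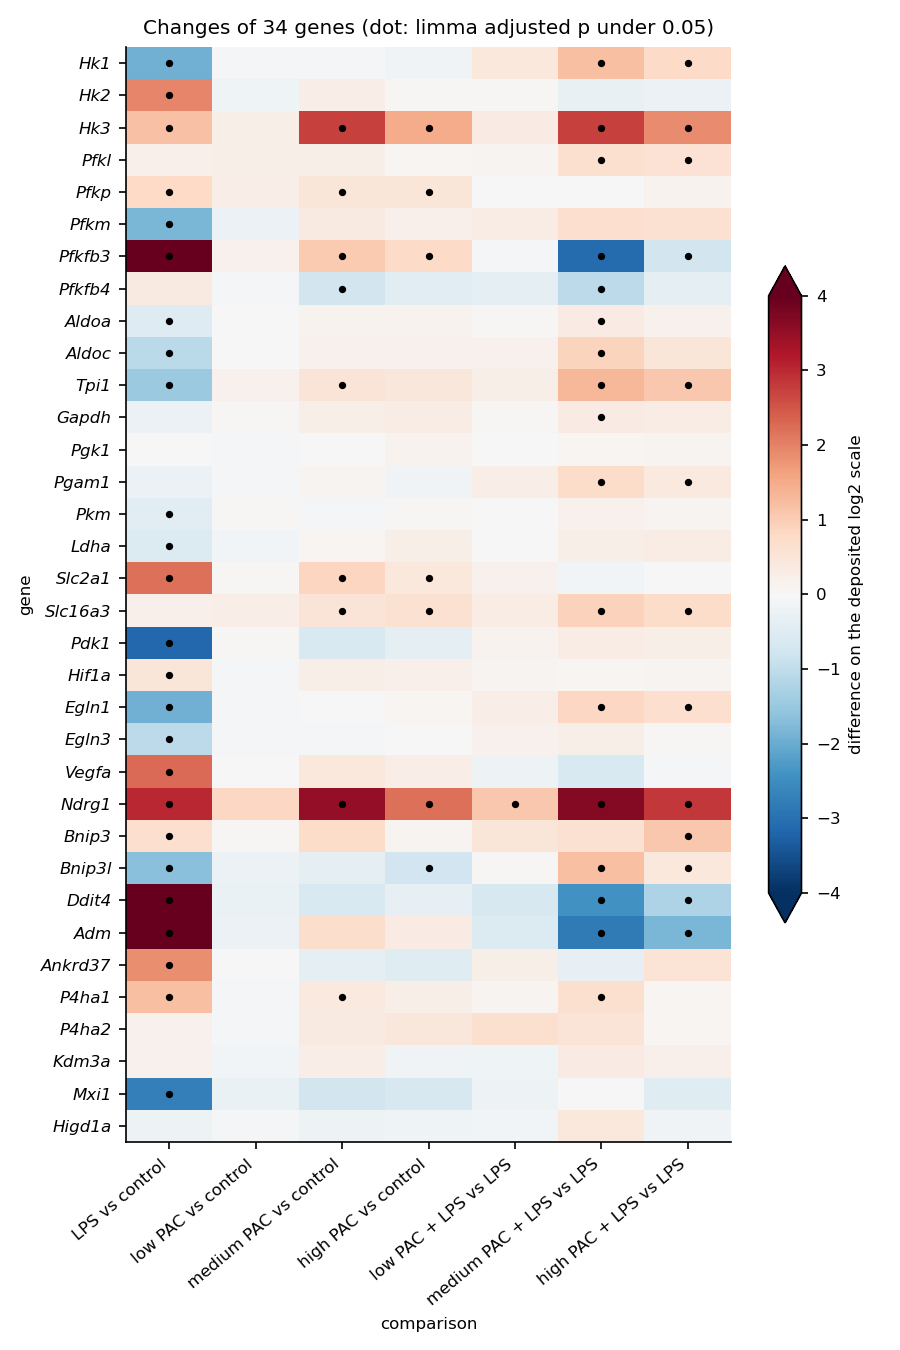
Changes of the 34 measured genes (rows) in the 7 comparisons with control or with LPS alone (columns). Colour is the difference of group means on the deposited log2 scale, cut at 4 in either direction, and a dot marks a limma adjusted p under 0.05. The LPS column holds 25 dots, the columns of low PAC hold 0 and 1, and Ndrg1 and Hk3 are red in the columns of medium and high PAC both without and with LPS.

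The largest change with PAC in the set was in Ndrg1, a HIF target that codes for a stress protein linked to growth arrest and differentiation. Resting arrays read 9.17, 9.08 and 9.00 in control, 10.06, 9.66 and 10.00 with low PAC, 12.61, 12.60 and 12.54 with medium PAC, and 11.70, 10.85 and 11.29 with high PAC. With LPS they read 11.84, 12.21 and 12.23 without PAC, 13.10, 13.16 and 13.25 with low PAC, 15.85, 15.69 and 15.74 with medium PAC, and 14.82, 14.92 and 14.99 with high PAC. In both states every array with PAC lay above every array without it, and the 3 fractions did not overlap, in the order low, high, medium. Medium PAC raised Ndrg1 by 3.50 (95% interval 3.15 to 3.86, limma adjusted p = 1e-11) and high PAC by 2.20 (1.85 to 2.55, 2.9e-08). The difference with low PAC, 0.83 (0.47 to 1.18), missed the threshold at an adjusted p of 0.11. LPS alone raised it by 3.01 (2.66 to 3.37, 6.4e-12). On top of LPS the changes were 1.08 with low PAC (0.72 to 1.43, 0.0076), 3.66 with medium PAC (3.31 to 4.02, 3.4e-12) and 2.82 with high PAC (2.46 to 3.17, 9.1e-10). The call with low PAC + LPS was lost without low PAC + LPS replicate 3, at an adjusted p of 0.051. The effect of medium PAC was alike in size in the 2 states, with an interaction of 0.16 (-0.34 to 0.66, adjusted p = 0.83).

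Hexokinases phosphorylate glucose and so trap it in the cell, and the 3 forms measured here differed in direction. Hk3, the form found mainly in myeloid cells, read 9.06, 9.26 and 9.30 in control, 9.81, 9.40 and 9.12 with low PAC, 11.62, 12.03 and 12.13 with medium PAC, and 10.66, 10.77 and 10.64 with high PAC. With LPS it read 10.23, 10.58 and 10.28 without PAC, 10.73, 10.52 and 10.88 with low PAC, 13.30, 13.04 and 12.95 with medium PAC, and 12.36, 12.20 and 12.19 with high PAC. Medium and high PAC arrays lay above all control or LPS arrays in both states, while low PAC overlapped its reference. The change was 2.72 with medium PAC (2.36 to 3.08, adjusted p = 6.2e-10) and 1.49 with high PAC (1.13 to 1.85, 7.8e-06), and 2.74 (2.37 to 3.10, 3.2e-10) and 1.89 (1.52 to 2.25, 2.9e-07) on top of LPS. LPS alone raised it by 1.16 (0.80 to 1.52, 1.3e-05). For low PAC the differences were 0.24 (-0.13 to 0.60) in resting cells and 0.34 (-0.02 to 0.71) with LPS, neither called.

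The stretch of DNA before the Hk3 start site is shown because Hk3 is, with Ndrg1, the member that PAC moved most in resting cells. No window for Ndrg1 was in the sequence table. The window, from 250 bases before to 50 after the RefSeq start, lies on the minus strand at chr13:55021336-55021635 (GRCm38.p6), and capitals mark the single match to the HIF binding core, ACGTG or GCGTG on either strand (CACGT or CACGC when read from the other strand).
Hk3: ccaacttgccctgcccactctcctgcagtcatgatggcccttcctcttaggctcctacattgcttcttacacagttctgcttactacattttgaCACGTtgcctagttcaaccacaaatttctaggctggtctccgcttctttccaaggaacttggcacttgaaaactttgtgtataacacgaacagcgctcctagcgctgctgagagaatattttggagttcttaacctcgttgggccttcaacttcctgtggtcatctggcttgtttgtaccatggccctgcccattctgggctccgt
The match lies 156 bases before the start, is read from the opposite strand and is not part of an E-box (CACGTG), the related site bound by other factors.

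Hk1, the housekeeping form, moved the other way with LPS. Its arrays read 13.82, 13.70 and 13.62 in control and 11.85, 11.84 and 11.74 with LPS, a fall by 1.91 (-2.26 to -1.55, adjusted p = 9.6e-09). With PAC before LPS it read 12.16, 12.10 and 12.42 (low), 13.11, 12.98 and 12.94 (medium) and 12.79, 12.29 and 12.68 (high), so that the medium PAC + LPS arrays lay above those of LPS and below those of control. The change on top of LPS was 1.20 with medium PAC (0.84 to 1.56, 2.6e-05) and 0.78 with high PAC (0.43 to 1.14, 0.0043). In resting cells PAC groups lay between 13.58 and 13.63 on average against 13.71 ± 0.10 in control, with no call. The difference between the states was 1.28 for medium PAC (0.78 to 1.78, interaction adjusted p = 0.0017). The comparisons with control and with LPS share the LPS arrays, so the fall and the rise of Hk1 are not independent of each other.

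Hk2, the inducible form, rose with LPS from 11.36 ± 0.26 to 13.31 ± 0.06, with control arrays at 11.34, 11.10 and 11.62 and LPS arrays at 13.38, 13.28 and 13.28 (adjusted p = 9.4e-10). No PAC comparison called it. Its differences were 0.27 (-0.04 to 0.59) with medium PAC and -0.31 (-0.62 to 0.01) with medium PAC + LPS.

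Of the 2 transporters in the set, the glucose importer Slc2a1 (GLUT1) rose by 2.21 with LPS (2.00 to 2.43, adjusted p = 2.8e-13). Resting arrays read 15.55, 15.45 and 15.54 in control, 15.53, 15.66 and 15.51 with low PAC, 16.36, 16.36 and 16.41 with medium PAC and 16.01, 15.93 and 15.87 with high PAC. With LPS they read 17.85, 17.60 and 17.72 without PAC, 17.89, 17.94 and 17.88 with low PAC, 17.64, 17.68 and 17.50 with medium PAC and 17.76, 17.69 and 17.72 with high PAC. The resting groups with medium and high PAC therefore stood apart from control, while the 4 groups with LPS lay within 17.50 to 17.94. Medium PAC raised Slc2a1 by 0.86 in resting cells (0.65 to 1.07, 4e-06) and high PAC by 0.42 (0.21 to 0.63, 0.014). The latter was not called without control replicate 2 or high PAC replicate 1 (adjusted p of 0.064 and 0.068) or without the 3 arrays high in Il1b (0.50, 0.098). On top of LPS the differences were -0.12 (-0.33 to 0.10) and 0.00 (-0.21 to 0.21). The effect of medium PAC differed between the states by -0.98 (-1.28 to -0.68, interaction adjusted p = 0.00013), at signals near the top of the scale.

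The Slc2a1 window is shown as one with 2 matches close to the start. It lies on the plus strand at chr4:119108495-119108794, with matches 61 and 36 bases before the start in capitals.
Slc2a1: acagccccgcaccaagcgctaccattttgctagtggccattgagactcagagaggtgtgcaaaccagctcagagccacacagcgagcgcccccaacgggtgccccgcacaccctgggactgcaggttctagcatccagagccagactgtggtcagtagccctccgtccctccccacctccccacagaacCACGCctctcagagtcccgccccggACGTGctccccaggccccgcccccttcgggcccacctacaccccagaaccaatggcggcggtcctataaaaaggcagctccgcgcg

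The lactate exporter Slc16a3 (MCT4) was raised by medium and high PAC in both states. Its means were 14.65 ± 0.03 in control, 14.90 ± 0.09 with low, 15.18 ± 0.07 with medium and 15.27 ± 0.04 with high PAC, and 14.85 ± 0.06, 15.15 ± 0.07, 15.75 ± 0.06 and 15.58 ± 0.21 in the same order with LPS. The changes were 0.53 and 0.62 in resting cells (adjusted p = 0.0025 and 0.001) and 0.91 and 0.73 with LPS (4.1e-06 and 0.00013). LPS alone left a difference of 0.19 (-0.04 to 0.43), not called.

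Phosphofructokinase is the committing step of glycolysis, and its strongest activator, fructose 2,6-bisphosphate, is made by the enzymes coded by Pfkfb3 and Pfkfb4. Pfkfb3 had the largest change of the set with LPS, and PAC moved it in opposite directions in the 2 states. Resting arrays read 8.90, 9.04 and 9.09 in control, 9.03, 9.35 and 9.18 with low PAC, 9.81, 10.30 and 10.07 with medium PAC, and 9.59, 10.16 and 9.52 with high PAC. With LPS they read 14.99, 15.19 and 14.88 without PAC, 15.00, 14.93 and 14.92 with low PAC, 11.97, 12.11 and 11.75 with medium PAC, and 14.27, 14.27 and 14.27 with high PAC. Medium and high PAC arrays lay above control in resting cells and below LPS in activated cells, and medium PAC + LPS stood far from the other 3 groups with LPS. The gene rose by 6.01 with LPS (5.67 to 6.35, adjusted p = 1.1e-16), by 1.05 with medium PAC (0.71 to 1.39, 0.00011) and by 0.75 with high PAC (0.41 to 1.09, 0.0057), the last not called without the 3 arrays high in Il1b (0.59, 0.17). On top of LPS the change was -3.08 with medium PAC (-3.42 to -2.74, 2.6e-11) and -0.75 with high PAC (-1.09 to -0.41, 0.0043), and with low PAC the difference was -0.07 (-0.41 to 0.27). The difference between the states was -4.13 for medium PAC (-4.61 to -3.65, interaction adjusted p = 9.3e-10) and -1.50 for high PAC (-1.98 to -1.02, 0.00076).

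Pfkfb3 has 2 start sites in RefSeq, and both windows are shown because they differ in the core. The first, on the minus strand at chr2:11502041-11502340, holds 3 matches in capitals, 122 and 53 bases before the start and 1 after it, and the one at 53 is an E-box.
Pfkfb3, site 1: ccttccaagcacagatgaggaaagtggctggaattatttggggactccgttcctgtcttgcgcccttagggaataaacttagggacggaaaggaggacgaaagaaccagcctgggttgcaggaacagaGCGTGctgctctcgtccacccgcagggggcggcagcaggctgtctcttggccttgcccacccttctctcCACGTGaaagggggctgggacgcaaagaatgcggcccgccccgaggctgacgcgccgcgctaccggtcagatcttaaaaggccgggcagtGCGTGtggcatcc
The second, on the minus strand at chr2:11553880-11554179, holds 1 match, 60 bases before the start.
Pfkfb3, site 2: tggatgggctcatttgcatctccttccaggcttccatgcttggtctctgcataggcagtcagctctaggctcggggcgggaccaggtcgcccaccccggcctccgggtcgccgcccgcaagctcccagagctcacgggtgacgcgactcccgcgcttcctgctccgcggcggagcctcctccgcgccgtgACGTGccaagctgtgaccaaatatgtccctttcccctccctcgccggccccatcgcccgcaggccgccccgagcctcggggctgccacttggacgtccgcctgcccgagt

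Pfkfb4 was lowered by medium PAC in both states. Its arrays read 9.05, 9.25 and 9.27 in control and 8.37, 8.69 and 8.36 with medium PAC, a change of -0.72 (-1.02 to -0.41, adjusted p = 0.0019). With LPS they read 9.60, 9.56 and 9.51 without PAC and 8.57, 8.36 and 8.58 with medium PAC, a change of -1.05 (-1.36 to -0.75, 1.8e-05). The groups did not overlap in either state. With high PAC the differences of -0.42 and -0.35 were not called (adjusted p = 0.1 and 0.15), nor was that of LPS against control, at 0.37 (0.057).

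The 3 phosphofructokinase subunits moved differently. Pfkm, the muscle-type subunit, fell with LPS from arrays of 7.33, 7.67 and 7.31 to 5.15, 5.59 and 6.04, a change of -1.84 (-2.45 to -1.23, adjusted p = 2.7e-05). Pfkp, the platelet-type subunit, rose by 0.79 with LPS (5e-05), by 0.49 with medium PAC (0.019) and by 0.48 with high PAC (0.029). The call with medium PAC was lost without control replicate 1 or 3 or medium PAC replicate 1 or 2 (0.051 to 0.11). That with high PAC was lost without control replicate 1 or 3 or any high PAC array (0.051 to 0.15) and without the 3 arrays high in Il1b (0.32). Pfkl, the liver-type subunit, rose by 0.63 with medium PAC + LPS (0.0017) and by 0.57 with high PAC + LPS (0.0076).

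The 8 enzymes from aldolase to lactate dehydrogenase carry glycolysis from the splitting of the sugar to lactate. With LPS 5 of them fell (Aldoa, Aldoc, Tpi1, Pkm and Ldha) and none rose, with changes between -1.49 and 0.00. Of all features 20.3% fell and 13.5% rose there. With medium PAC + LPS 5 rose (Aldoa, Aldoc, Tpi1, Gapdh and Pgam1) and none fell, with changes between 0.09 and 1.33. Of all features 7.17% rose and 7.47% fell there. With high PAC + LPS Tpi1 and Pgam1 rose, where 4.34% of all features rose and 5.74% fell. In resting cells Tpi1 alone was called, with medium PAC, where 11.3% of all features were called. Low PAC called none in either state.

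Tpi1, triosephosphate isomerase, had the largest changes among them. Its arrays read 15.51, 15.40 and 15.34 in control, 15.65, 15.51 and 15.60 with low PAC, 15.99, 16.01 and 15.80 with medium PAC, and 15.91, 15.86 and 15.79 with high PAC. With LPS they read 13.54, 14.27 and 13.98 without PAC, 14.07, 14.08 and 14.32 with low PAC, 15.39, 15.22 and 15.17 with medium PAC, and 15.05, 14.81 and 15.21 with high PAC. With LPS, medium and high PAC arrays lay above all those of LPS alone, and low PAC overlapped them. LPS changed Tpi1 by -1.49 (-1.81 to -1.17, adjusted p = 8.4e-08). Medium PAC + LPS raised it by 1.33 (1.01 to 1.65, 1.8e-06) and high PAC + LPS by 1.09 (0.77 to 1.42, 5.6e-05). The resting rise with medium PAC was 0.51 (0.19 to 0.84, 0.034), and the effect differed between the states by 0.82 (0.36 to 1.27, interaction adjusted p = 0.026). The resting call was lost without any single control array or medium PAC replicate 1 or 2 (0.053 to 0.11). The interaction was lost without control replicate 1, medium PAC replicate 3, LPS replicate 1 or medium PAC + LPS replicate 1 (0.067 to 0.075). Without the arrays high in Il1b the 2 had adjusted p of 0.061 and 0.098.

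Aldoc, an aldolase, followed with arrays of 13.80, 13.34 and 13.67 in control, 12.53, 12.34 and 12.70 with LPS and 13.30, 13.33 and 13.57 with medium PAC + LPS. It fell by 1.09 with LPS (adjusted p = 6.9e-06) and rose by 0.88 with medium PAC + LPS (0.0003). The smaller changes with medium PAC + LPS were 0.72 for the mutase Pgam1 (0.00033), 0.32 for the main aldolase Aldoa (0.023) and 0.32 for Gapdh (0.048). The calls of Aldoa and Gapdh were lost without LPS replicate 1 or 3 or medium PAC + LPS replicate 3, that of Aldoa also without replicate 2 of the same group and that of Gapdh without replicate 1 (adjusted p of 0.058 to 0.089 and 0.14 to 0.2). With high PAC + LPS Pgam1 rose by 0.40 (0.049), a call lost without any single array of the 2 groups (0.055 to 0.16). Pkm, the last step to pyruvate, fell with LPS from 18.71 ± 0.06 to 18.25 ± 0.03 and Ldha, which makes lactate, from 17.27 ± 0.05 to 16.71 ± 0.08 (adjusted p = 0.0004 and 0.00021). Both lie in the range where the scale may be compressed, and no PAC comparison called them. The 8 group means of Pgk1, a kinase of the same stretch, ran from 16.75 to 16.95.

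Pdk1 codes for a kinase that blocks the entry of pyruvate into the mitochondria and is a HIF target. LPS lowered it, from arrays of 11.61, 11.43 and 11.54 to 8.34, 8.13 and 8.71, a change of -3.13 (-3.63 to -2.63, adjusted p = 8.6e-10). With medium PAC in resting cells the difference was -0.61 (-1.12 to -0.11, adjusted p = 0.12). On top of LPS it was 0.30 with medium PAC (-0.20 to 0.80) and 0.22 with high PAC (-0.28 to 0.72), and neither passed.

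Of the 3 oxygen-sensing genes, 1 rose and 2 fell with LPS, where 33.7% of all features were called. Egln1 alone rose with medium and high PAC + LPS, where 14.6% and 10.1% were called. None was called with PAC in resting cells, where medium and high PAC called 11.3% and 6.85% of all features. Hif1a, the regulated subunit of HIF, rose from 13.18 ± 0.05 to 13.67 ± 0.10 with LPS (adjusted p = 0.0021). Its differences with PAC ran from -0.04 to 0.24 in resting cells and from 0.09 to 0.12 with LPS, none of them called. These are transcript signals, and HIF is regulated mainly at the protein, which was not measured on the arrays.

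Egln1 codes for the main prolyl hydroxylase that marks HIF for degradation. Its arrays read 11.16, 11.12 and 11.37 in control and 9.32, 9.48 and 9.08 with LPS, a change of -1.92 (-2.31 to -1.53, adjusted p = 3.5e-08). With medium PAC + LPS they read 10.01, 10.51 and 9.86 and with high PAC + LPS 9.67, 10.31 and 9.94, all above LPS alone and below control. Those changes were 0.83 (0.44 to 1.22, 0.0034) and 0.68 (0.29 to 1.07, 0.024), the second lost without LPS replicate 1 or 3 or high PAC + LPS replicate 2 or 3 (0.052 to 0.12). Egln3, a second hydroxylase and itself a HIF target, read 4.28, 5.12 and 4.64 in control and 3.54, 3.52 and 3.81 with LPS, with both means below the silent level. No size is therefore given for its call with LPS (adjusted p = 0.036), which was lost when control replicate 2 or 3 or any LPS replicate was left out, at adjusted p of 0.05 to 0.16.

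**Figure D2:**
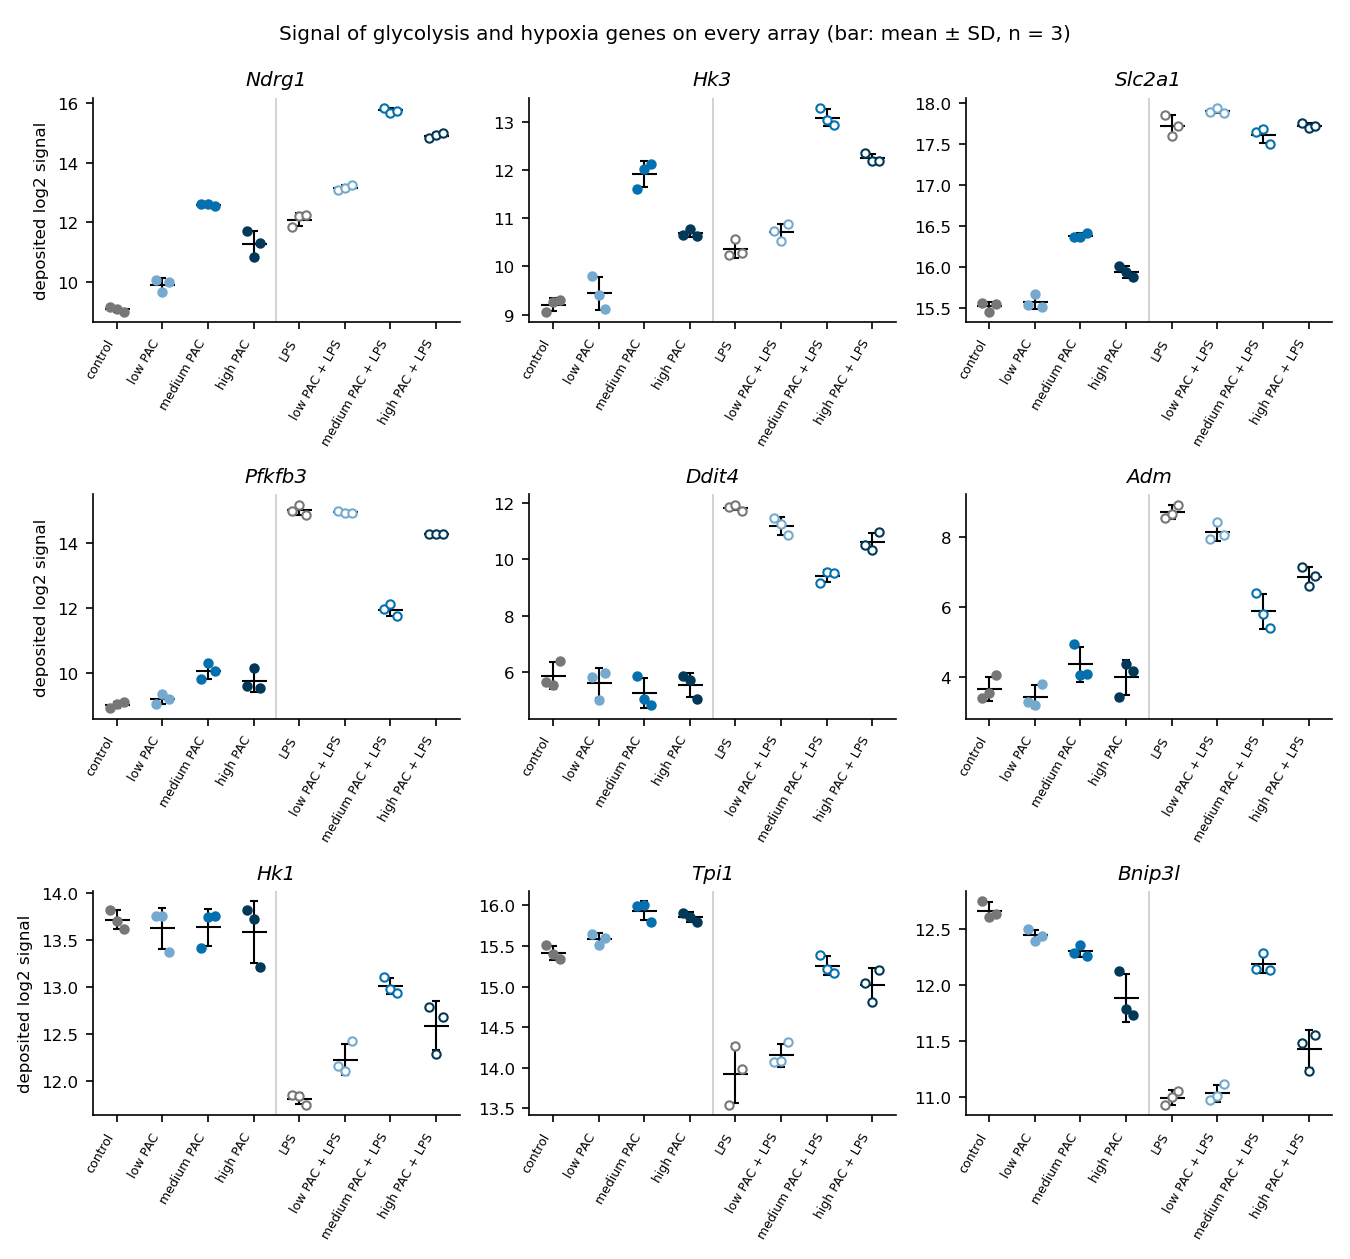
Deposited log2 signal (vertical axes, each on its own range) of 9 genes on every array in the 8 groups, with filled points for resting cells and open points for cells with LPS. Horizontal bars are means and vertical bars standard deviations over 3 arrays. Ndrg1 and Hk3 are highest with medium PAC both without and with LPS, and Pfkfb3, Ddit4 and Adm are lowest with medium PAC among the groups with LPS.

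Ddit4 and Adm are stress-induced HIF targets that LPS raised strongly. Ddit4 (REDD1) is an inhibitor of mTORC1, the kinase complex that drives growth. Its resting arrays lay between 4.86 and 6.42, with group means of 5.88 ± 0.47 in control, 5.62 ± 0.53 with low, 5.27 ± 0.55 with medium and 5.56 ± 0.43 with high PAC, which overlap. With LPS the arrays read 11.86, 11.91 and 11.71 without PAC, 11.46, 11.26 and 10.84 with low PAC, 9.17, 9.56 and 9.52 with medium PAC, and 10.51, 10.34 and 10.96 with high PAC. All PAC + LPS arrays lay below all LPS arrays. LPS raised Ddit4 by 5.94 (5.31 to 6.58, adjusted p = 1.4e-12). On top of LPS it fell by 2.41 with medium PAC (5.8e-06) and by 1.23 with high PAC (0.012), and the difference with low PAC was -0.64 (-1.28 to -0.01, adjusted p = 0.64). The call with high PAC + LPS was lost without high PAC + LPS replicate 2 (-1.09, adjusted p = 0.052). The effect of medium PAC differed between the states by -1.80 (-2.70 to -0.90, 0.013).

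Adm codes for adrenomedullin, a vasodilator peptide. Its resting values lay at 3.18 to 4.93 on the 12 arrays, with all 4 means below the silent level, so no resting change is read from them. With LPS the arrays read 8.55, 8.66 and 8.93 without PAC, 7.95, 8.43 and 8.07 with low PAC, 6.41, 5.81 and 5.41 with medium PAC, and 7.13, 6.60 and 6.88 with high PAC. The 4 groups did not overlap and stood in the order LPS, low PAC, high PAC, medium PAC. LPS raised the mean from 3.65, below the silent level, to 8.71, a rise of at least 3.98 when counted from the silent level (adjusted p = 1.2e-11). On top of LPS it fell by 2.84 with medium PAC (4.4e-07) and by 1.84 with high PAC (0.00023), while the difference of -0.56 with low PAC (-1.18 to 0.06) was not called. The interaction term also passed the test with medium and high PAC (9.1e-06 and 0.0061, the latter 0.17 without the 3 arrays high in Il1b), but its resting side lies below the silent level and no difference between the states is read from it.

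Both promoter windows are shown because, of the 34 members, these are the 2 outside glycolysis that rose with LPS and fell with medium PAC on top of it. The Ddit4 window lies on the minus strand at chr10:59951721-59952020, with matches 187 and 115 bases before the start, and the Adm window on the plus strand at chr7:110627407-110627706, with matches 90 and 54 bases before it.
Ddit4: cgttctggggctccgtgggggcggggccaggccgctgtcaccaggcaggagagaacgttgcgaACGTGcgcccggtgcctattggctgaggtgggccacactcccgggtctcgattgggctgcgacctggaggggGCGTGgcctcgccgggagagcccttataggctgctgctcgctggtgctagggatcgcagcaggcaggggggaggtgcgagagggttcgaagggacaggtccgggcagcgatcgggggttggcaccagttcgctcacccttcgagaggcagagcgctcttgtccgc
Adm: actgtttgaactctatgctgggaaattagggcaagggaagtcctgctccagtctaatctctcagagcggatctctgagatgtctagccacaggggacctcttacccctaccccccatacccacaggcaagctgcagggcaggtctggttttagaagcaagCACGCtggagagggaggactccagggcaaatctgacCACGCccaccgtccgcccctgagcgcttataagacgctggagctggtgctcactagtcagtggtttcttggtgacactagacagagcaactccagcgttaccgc
Over the whole set the sequence table held 52 windows for 34 of the 36 listed genes, and Ndrg1 and Bnip3l had none. The core was present in 41 of the 52 windows, or 78.8%, for 32 genes, and in 43.8% of all 32851 mouse windows of the same length. Windows of the set were also richer in G and C, with a median of 62.7% against 52.7%, and the part of this in the difference was not tested. An E-box was present in 9.6% of the set's windows and 7.2% of all. Tpi1 and Gpi1 held no match. Of the genes whose windows are printed, Hk3, Slc2a1 and Pfkfb3 rose in resting cells with medium PAC and Ddit4 was not called there. Adm lay below the silent level in resting cells. Tpi1, which held no match, also rose there, a call lost without single arrays. Whether the core has a part in any of these values was not tested. The match is a description of the sequence and not a bound site.

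Bnip3 and Bnip3l code for related mitophagy receptors and are both HIF targets, yet they moved apart with LPS. Bnip3l fell from arrays of 12.75, 12.61 and 12.64 to 10.93, 11.00 and 11.06, a change of -1.67 (-1.92 to -1.42, adjusted p = 3.4e-10). Bnip3 rose from 8.72, 8.61 and 8.69 to 9.29, 9.54 and 9.21, a change of 0.67 (0.18 to 1.17, 0.033), a call lost without any single control array or LPS replicate 1 or 2 (0.059 to 0.12). High PAC lowered Bnip3l in resting cells, and medium and high PAC raised it with LPS. Its resting arrays read 12.50, 12.40 and 12.44 with low PAC, 12.29, 12.36 and 12.26 with medium PAC, and 12.13, 11.79 and 11.74 with high PAC, all below control, and the change was called with high PAC (-0.78, adjusted p = 0.00022) and not with medium PAC (-0.36, 0.059). The call with high PAC was lost without the 3 arrays high in Il1b (-0.54, 0.089), 2 of which are the lower 2 high PAC arrays. With LPS the arrays read 10.98, 11.01 and 11.12 with low PAC, 12.15, 12.29 and 12.14 with medium PAC, and 11.49, 11.24 and 11.56 with high PAC. Here medium and high PAC lay above LPS alone, by 1.19 (0.94 to 1.44, 3e-07) and 0.43 (0.18 to 0.68, 0.026). The call with high PAC + LPS was lost without LPS replicate 1 or 2 or high PAC + LPS replicate 1 or 3 (adjusted p of 0.064 to 0.11). The effect differed between the states by 1.55 for medium PAC (1.20 to 1.91, 3.5e-06) and by 1.21 for high PAC (0.85 to 1.56, 0.00031). Bnip3 rose by 1.08 with high PAC + LPS (0.58 to 1.58, 0.0046), with arrays of 9.99, 10.59 and 10.71, and the differences with medium PAC, 0.72 in resting cells and 0.60 with LPS, were not called (0.059 and 0.11).

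The other targets changed mainly with LPS. Vegfa, the vessel growth factor, rose from 8.56, 9.10 and 9.06 to 11.47, 10.89 and 11.20, a change of 2.28 (1.76 to 2.81, adjusted p = 2.2e-07). Ankrd37, an ankyrin repeat protein gene induced by hypoxia, rose from 6.87, 6.50 and 6.65 to 8.90, 8.21 and 8.45, a change of 1.85 (1.28 to 2.41, 1e-05). Mxi1, an antagonist of Myc, fell from 11.23, 11.36 and 11.29 to 8.68, 8.40 and 8.63, a change of -2.73 (-3.37 to -2.08, 3.4e-07). In all 3 the control and LPS groups were well apart, and no PAC comparison with control or LPS called any of them. Vegfa had a difference of -0.61 (-1.13 to -0.08, adjusted p = 0.13) with medium PAC + LPS. Resting Mxi1 had means of 11.29 in control, 10.56 with medium PAC and 10.65 with high PAC. The highest arrays of those PAC groups, at 10.81 and 10.71, lay below the lowest control array. Such separation from control was found for 14 members above and 4 below with medium PAC, and 12 and 4 with high PAC. Its share over all features was not counted, so the uncalled Mxi1 differences are not read as a fall.

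P4ha1, a collagen prolyl hydroxylase subunit, rose with LPS from 12.01, 12.07 and 11.74 to 13.10, 13.15 and 13.20 (change 1.21, adjusted p = 7.5e-08). Medium PAC raised it further, by 0.63 with LPS (0.001), and by 0.40 in resting cells (0.044). The resting call was lost without control replicate 1 or 3 or any medium PAC array (0.06 to 0.21) and without the arrays high in Il1b (0.068). Its relative P4ha2 stayed below the silent level. Kdm3a, a histone demethylase, and Higd1a, a mitochondrial protein, had group means of 8.62 to 9.27 and 9.41 to 9.99, with no call.

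**Figure D3:**
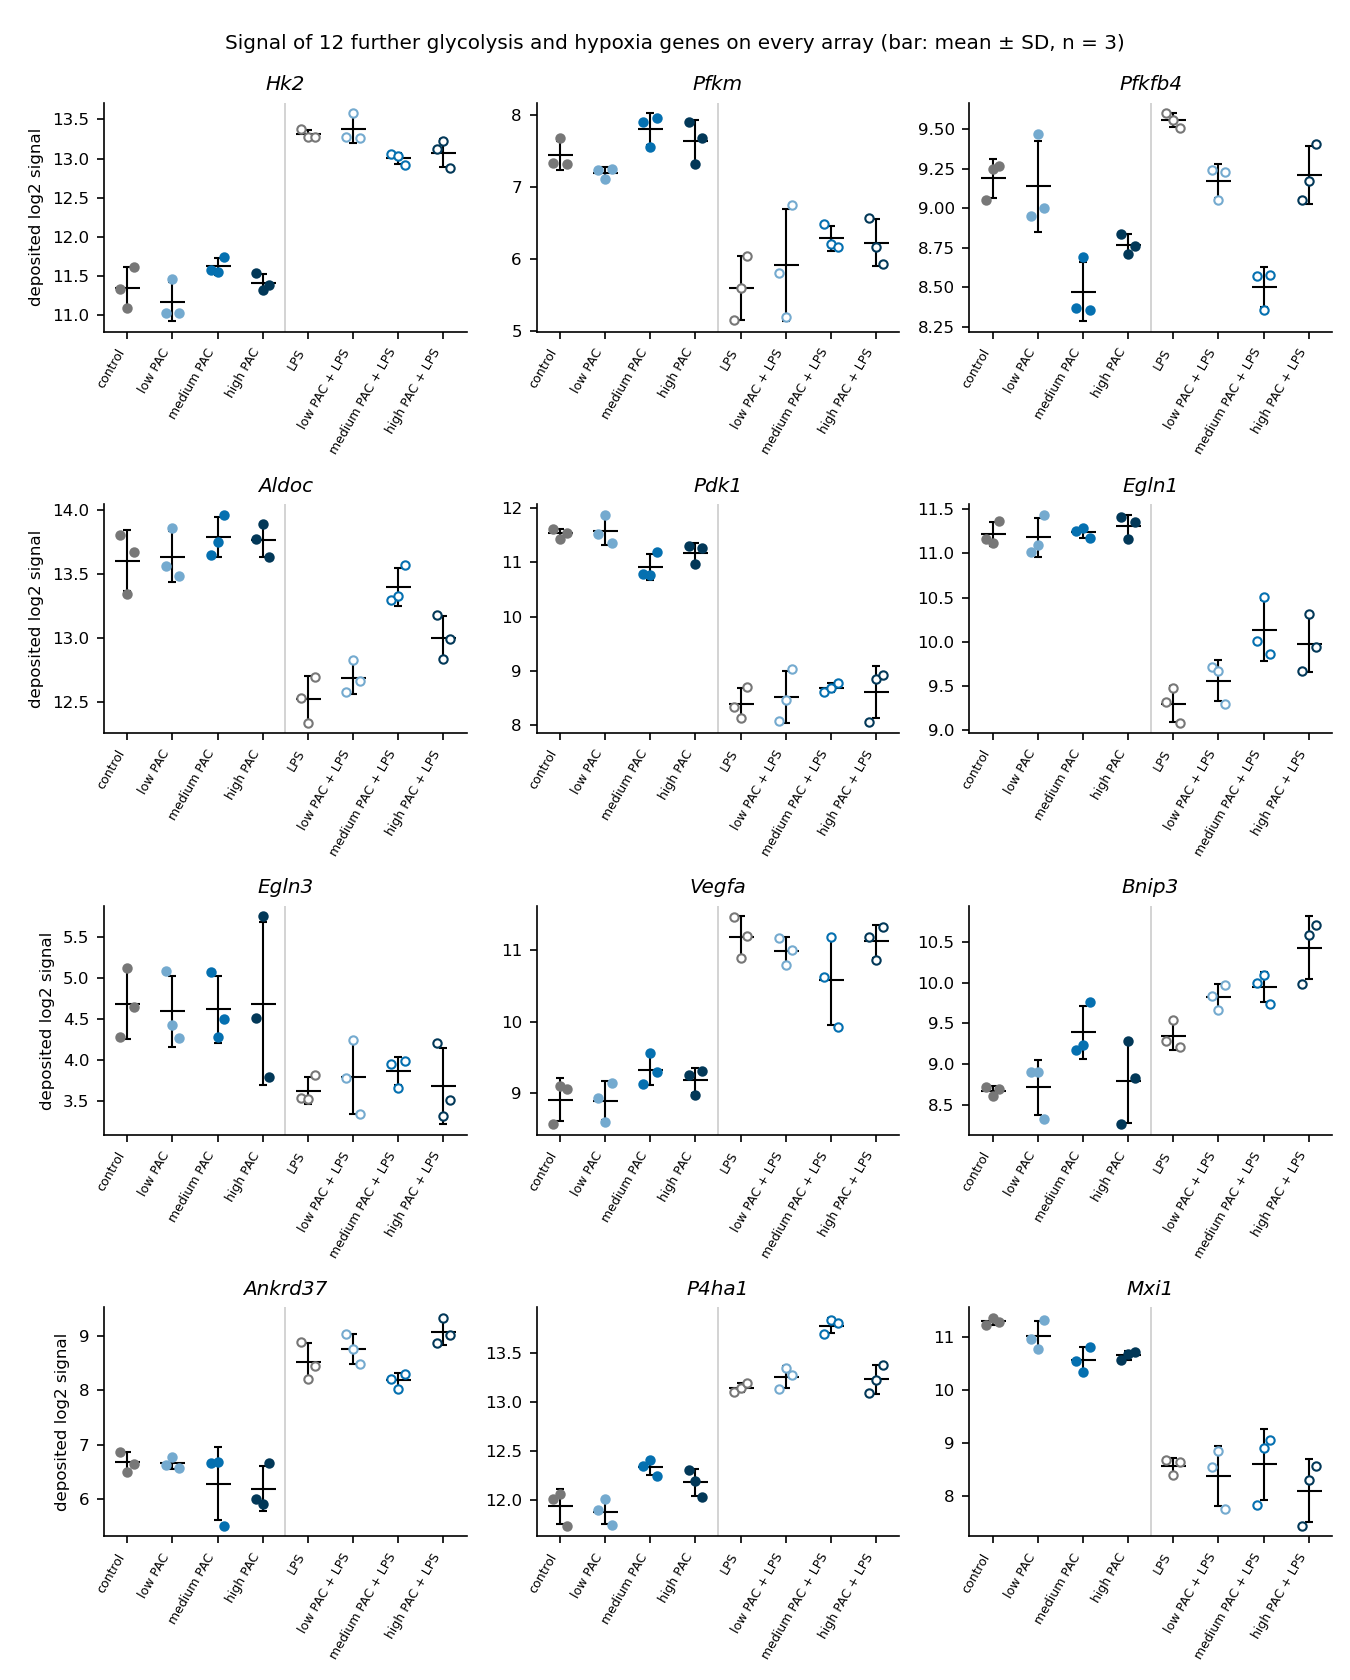
Deposited log2 signal (vertical axes, each on its own range) on every array of the 12 further genes with a called change of at least 1, with filled points for resting cells and open points for cells with LPS. Horizontal bars are means and vertical bars standard deviations over 3 arrays. Pdk1, Mxi1 and Hk2 part by LPS and were called in no PAC comparison with control or LPS. Resting Mxi1 has lower means with medium and high PAC than in control, differences that were not called. Pfkfb4 has its lowest mean with medium PAC, both without and with LPS (8.47 and 8.50).

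The effect of medium PAC was compared between the states by its interaction with LPS, which uses different arrays for the 2 effects. It was called for 7 of the 34 members, 3 of them higher with LPS (Hk1, Tpi1 and Bnip3l) and 4 lower (Pfkfb3, Slc2a1, Ddit4 and Adm, the last with resting means below the silent level), where 6.29% of all features passed (3.04% and 3.25%). For high PAC it was called for Bnip3l, higher, and for Pfkfb3 and Adm, lower, where 1.91% of features passed (0.761% and 1.15%). For low PAC no member passed and 0 of all 22206 features did, with 1 member at an unadjusted p under 0.05. Hk3 had an interaction of 0.02 (-0.50 to 0.53) with medium PAC. The resting means of Ddit4 lay little above the silent level, which left little room for a resting fall.

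**Figure D4:**
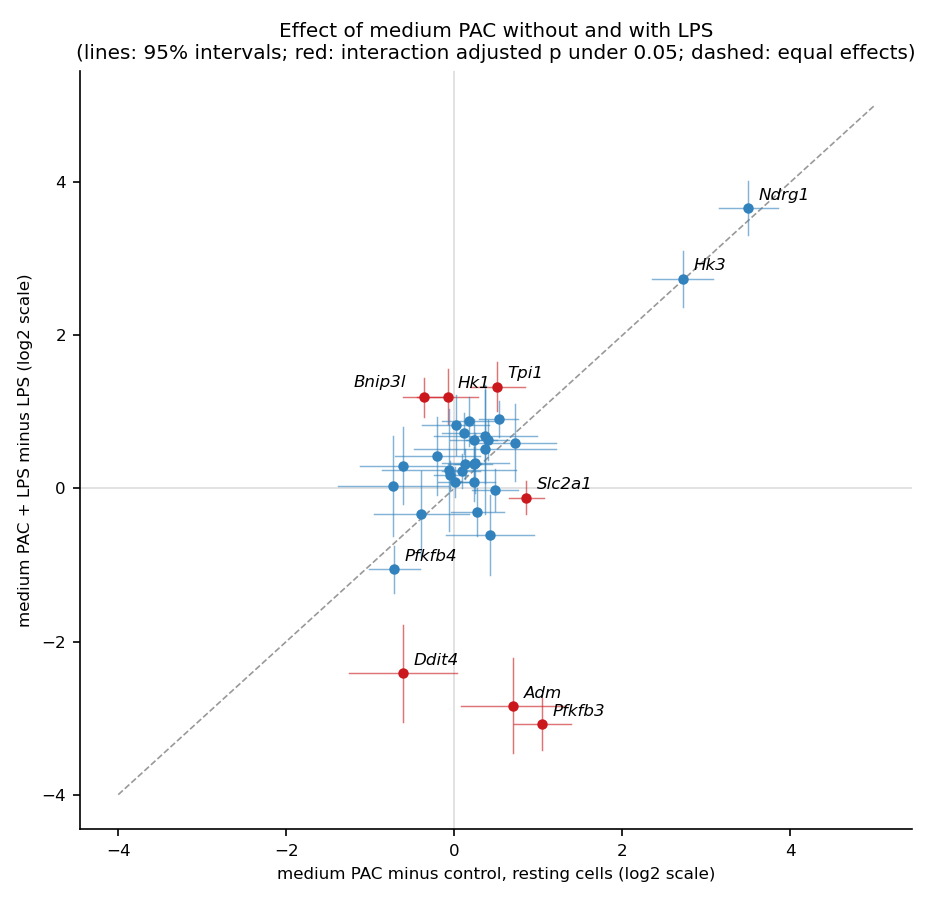
Effect of medium PAC in resting cells (horizontal axis) against its effect on top of LPS (vertical axis) for the 34 genes, both as differences on the deposited log2 scale with 95% intervals from limma. The dashed line marks equal effects and red marks the 7 genes whose interaction passed the test. Ndrg1 and Hk3 lie on the line at the upper right, and Pfkfb3, Adm and Ddit4 lie far below it, with the resting value of Adm taken between means below the silent level. The resting value of Ddit4 is taken between means little above that level.

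The 3 fractions were then compared directly at the same mass dose and time, over 6 pairs. In resting cells medium PAC exceeded low PAC in 5 members (Hk3, Pfkfb3, Slc2a1, Ndrg1 and P4ha1) and fell below it in Pfkfb4, where 8.74% of features differed (4.01% higher and 4.72% lower). The call of P4ha1 was lost without low PAC replicate 1 or 3 or medium PAC replicate 1 or 2 (adjusted p of 0.066 to 0.13). High PAC exceeded low PAC in Hk3, Pfkfb3, Slc2a1 and Ndrg1 and fell below it in Bnip3l, where 4.88% differed (2.10% higher and 2.77% lower). The calls of Pfkfb3 and Slc2a1 in that pair had adjusted p of 0.047 and 0.042, and both were lost without any single low PAC array or high PAC replicate 1 or 2, and that of Slc2a1 also without high PAC replicate 3 (0.055 to 0.26 and 0.057 to 0.15). Without the 3 arrays high in Il1b, Hk3 and Ndrg1 were the members left.

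Medium PAC exceeded high PAC in 3 members of resting cells, where 2.27% of features differed (1.47% higher and 0.797% lower). The differences were 1.30 for Ndrg1 (0.95 to 1.66, adjusted p = 0.00011), 1.23 for Hk3 (0.87 to 1.59, 0.00023) and 0.44 for Slc2a1 (0.23 to 0.65, 0.021), the last lost without any single medium PAC array or high PAC replicate 2 or 3 (0.064 to 0.09). None of the 3 was called without the arrays high in Il1b, where Ndrg1 differed by 0.90 (0.064), Hk3 by 1.16 (0.072) and Slc2a1 by 0.35 (0.59). For other genes raised by both fractions no difference passed, with intervals of -0.32 to 0.14 for Slc16a3, -0.28 to 0.28 for Pfkp and -0.04 to 0.64 for Pfkfb3.

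With LPS, medium PAC exceeded low PAC in 10 members and fell below it in 4 (Pfkfb3, Pfkfb4, Ddit4 and Adm), where 12.5% of features differed (6.40% higher and 6.09% lower). Of these, Pgam1 was lost without replicate 1 or 2 of either group, and Pfkl without low PAC + LPS replicate 2 or medium PAC + LPS replicate 1 (adjusted p of 0.063 to 0.085 and 0.075 to 0.079). High PAC exceeded low PAC in Hk3, Pfkl, Tpi1, Slc16a3 and Ndrg1 and fell below it in Pfkfb3 and Adm, where 6.99% differed (3.14% higher and 3.85% lower). Without low PAC + LPS replicate 2 that pair had 4 calls, losing Pfkl (0.062 to 0.2 over the 5 of 6 arrays whose absence lost it), Slc16a3 (0.062 to 0.13 over 3 of 6) and Adm (0.051). Without low PAC + LPS replicate 1 it lost Pfkfb3 (0.05). Medium PAC exceeded high PAC in Hk3, Ndrg1, Bnip3l and P4ha1 and fell below it in Pfkfb3, Pfkfb4 and Ddit4, where 5.37% differed (2.96% higher and 2.40% lower).

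The largest difference between medium and high PAC with LPS was in Pfkfb3, at -2.33 (-2.67 to -1.99, adjusted p = 2.4e-08). Those of Hk3 and Ndrg1 were 0.85 each (0.0047 and 0.0041), that of Bnip3l 0.76 (0.00042), that of Pfkfb4 -0.70 (0.0052) and that of P4ha1 0.55 (0.011, and 0.057 without high PAC + LPS replicate 1). Ddit4 differed by -1.19 (-1.82 to -0.55, 0.025), a call lost without medium PAC + LPS replicate 1 or 3 or high PAC + LPS replicate 1 or 3 (adjusted p of 0.05 to 0.11). Adm differed by -0.99 (-1.61 to -0.38), just short of the threshold (0.055). Tpi1 and Slc16a3, raised by both, did not differ beyond the test, with intervals of -0.08 to 0.56 and -0.06 to 0.40.

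**Figure D5:**
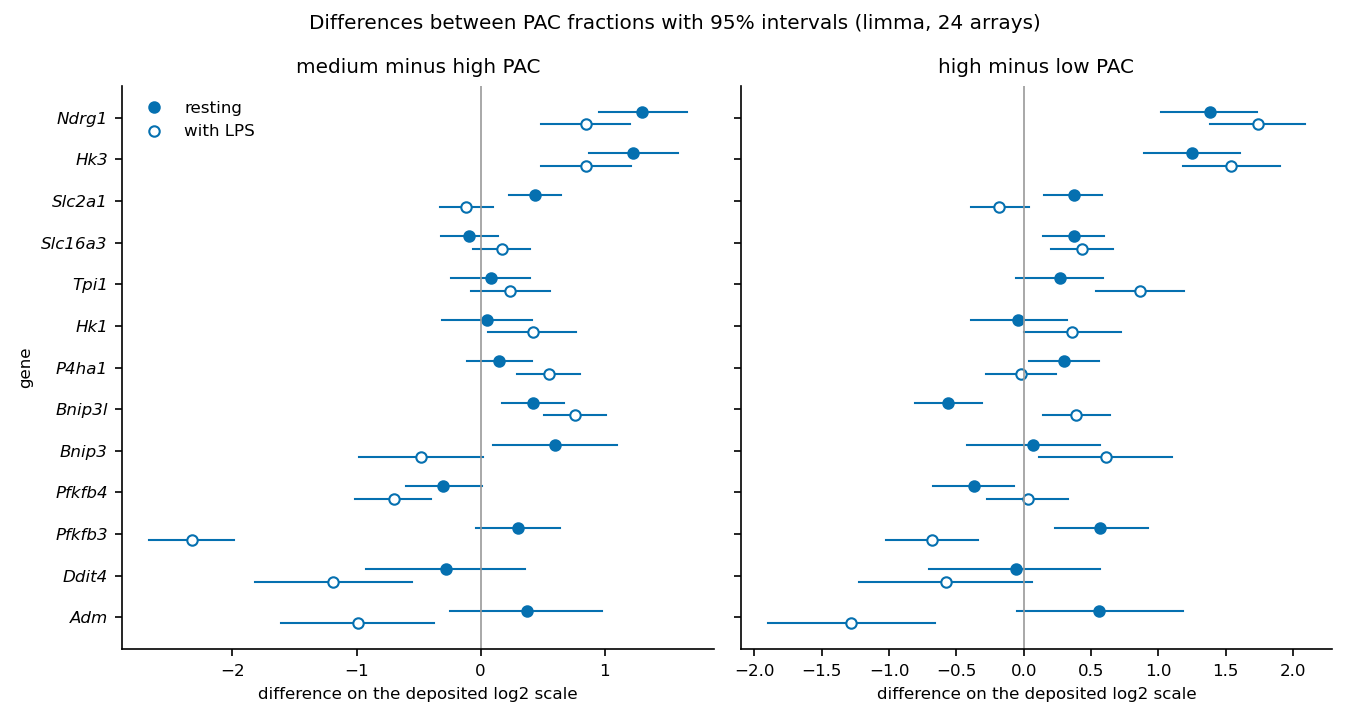
Differences between PAC fractions at the same mass dose for 13 genes (rows), medium minus high on the left and high minus low on the right, on the deposited log2 scale with 95% intervals from limma. Filled points are resting cells and open points cells with LPS. Ndrg1 and Hk3 lie to the right of 0 in every comparison shown, and Pfkfb3 lies far to the left for medium minus high with LPS, at -2.33.

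Genes around the set were read from 5 further lists, of which those with a called change of at least 1 after rounding in a PAC comparison are named. As for the members, the shares of all features given beside these lists were not matched to them by signal. Among 21 other glycolysis genes, 2 rose and 7 fell with LPS (42.86%, against 33.7% of all features). With PAC 3 rose and none fell with medium PAC (14.29%, against 11.3% of all features) and with high PAC (14.29% against 6.85%). With LPS as the reference 7 rose with medium PAC (33.33% against 14.6%) and 3 with high PAC (14.29% against 10.1%), and none fell. Eno2, an enolase, rose from 3.92 ± 0.31, below the silent level, to 5.84 ± 0.38 with medium PAC (at least 1.11 from the silent level, adjusted p = 6.2e-05), and from 4.88 ± 0.44 with LPS to 7.54 ± 0.16 with medium PAC + LPS (6.1e-07). Galm, the galactose mutarotase, fell with LPS from 9.45 ± 0.20 to 6.59 ± 0.13 and stood at 9.44 ± 0.22 with medium PAC + LPS (change 2.85, 3e-09) and 7.86 ± 0.36 with high PAC + LPS (1.27, 0.00033). In resting cells Galm also rose, by 1.34 with medium PAC (0.00012) and by 0.76 with high PAC (0.032). The muscle enolase Eno3 rose by 1.32 with medium PAC + LPS (0.00025).

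Of 36 other hypoxia targets (38 features), 15 features were higher and 4 lower with LPS (50% against 33.7%), 5 and 4 with medium PAC (23.68% against 11.3%), and 6 and 1 with high PAC (18.42% against 6.85%). Against LPS the counts were 4 higher and 8 lower with medium PAC (31.58% against 14.6%) and 3 and 7 with high PAC (26.32% against 10.1%). Bhlhe40, a transcriptional repressor, rose in both states, from 10.69 ± 0.47 to 14.61 ± 0.05 with medium PAC and 13.07 ± 0.05 with high PAC, and from 11.52 ± 0.21 with LPS to 14.48 ± 0.12 and 13.57 ± 0.03 (adjusted p of 1e-07 or smaller in all 4). Hilpda, a lipid droplet protein gene, rose by 1.70 with medium PAC (7.5e-06), 1.56 with medium PAC + LPS (1.5e-05) and 1.30 with high PAC + LPS (0.00026). Hmox1, which breaks down haem, rose by 1.91 with medium PAC (5e-11) and 1.42 with high PAC (1.3e-08), and by 1.36 (4.3e-09) and 1.14 (2.3e-07) with LPS. Nos2, the inducible nitric oxide synthase, read 3.85 ± 1.15 in control, below the silent level, 5.75 ± 1.09 with medium PAC (0.038) and 6.27 ± 0.88 with high PAC (0.012). Both calls of Nos2 were lost without the 3 arrays high in Il1b (0.2 and 0.36) and without control replicate 1 (0.23 and 0.093). That with medium PAC was also lost without medium PAC replicate 3 (0.22) and that with high PAC without high PAC replicate 2 (0.079). Stc2, a secreted glycoprotein gene, rose by 1.41 with high PAC (0.021), a call lost without the 3 arrays high in Il1b (0.14) and without any single control array or high PAC replicate 1 or 2 (0.051 to 0.088).

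On the lower side, Errfi1, a feedback inhibitor of the EGF receptor, fell with medium PAC + LPS from 14.90 ± 0.11 to 10.59 ± 0.19 (2.3e-13) and to 12.66 ± 0.07 with high PAC + LPS (1.5e-08). Flt1, a receptor for the product of Vegfa, fell with medium PAC + LPS from 13.15 ± 0.03 to 10.13 ± 0.29 (6.8e-11) and with medium PAC in resting cells from 9.51 ± 0.25 to 7.92 ± 0.33 (1.2e-06). Casp6, a caspase gene, fell by 2.91 with medium PAC + LPS (1.3e-07). Car12, a carbonic anhydrase, fell with all 3 fractions on top of LPS. The falls were 1.00 with low PAC (0.043), 0.84 with medium PAC (0.004) and 0.99 with high PAC (0.0017). In resting cells Car12 fell by 0.69 with medium PAC (0.022). Its calls are not given with single arrays left out.

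Of 16 genes of the oxygen-sensing machinery, 6 rose and 1 fell with LPS (43.75% against 33.7%). With PAC 1 rose and 2 fell with medium PAC (18.75% against 11.3%), and none was called with high PAC (against 6.85%). Against LPS 3 fell with medium PAC + LPS (18.75% against 14.6%) and 1 with high PAC + LPS (6.25% against 10.1%). Of 12 genes for the entry of pyruvate into the mitochondria, 1 was called with high PAC + LPS (8.333% against 10.1%). None was called with medium PAC (against 11.3%), high PAC (6.85%) or medium PAC + LPS (14.6%). Low PAC also called none, without or with LPS (0.0360% and 0.149%). The 1 called was the kinase Pdk3, which fell by 1.14 (0.0095) and was not called without LPS replicate 2 or 3 (0.055 and 0.058). With LPS 1 of the 12 rose and 7 fell (66.67% against 33.7%). Of 7 pentose phosphate genes, 1 rose and 5 fell with LPS (85.71% against 33.7%). With PAC 2 fell with medium PAC (28.57% against 11.3%) and 1 rose with medium PAC + LPS (14.29% against 14.6%). H6pd, the enzyme of the endoplasmic reticulum, fell by 1.32 with medium PAC (0.014), a call lost without the 3 arrays high in Il1b (0.088) and without control replicate 2 or medium PAC replicate 1 or 3 (0.065 to 0.068).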

How the data were processed

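RNA was measured in 24 samples, and groups were taken from the sample labels. The authors deposited 1 table of log2 values per feature (28846 features), labelled with a whole-transcript kit and made in Transcriptome Analysis Console per the study's methods, with the summarisation, background correction and version not given in the sources used here. Stretching of the scale changes the size of differences, not their direction. The 6640 control features were left out and every sample column was used. Symbols came from the platform table and RefSeq (19572 of 22206 features named), and promoter windows from RefSeq (GRCm38.p6). With limma 3.58.1 in R 4.3.3, 8 group means were fitted to all arrays without further normalization (16 residual and 3.39 prior degrees of freedom), in 16 comparisons, two-sided, and tested on simulated data. The number of arrays limits the precision.

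The members and lists were chosen with earlier results of these data known. Values of every array are given, in the text or in the plots of signal by array, for the 21 members called with a change of at least 1 in any of the 7 comparisons with control or LPS. Genes outside the set are named when called with a change of at least 1 after rounding in a PAC comparison, at most 5 per list and comparison, or as markers. Il1b was named after its values were seen, for the arrays that stood apart. Alternatives were quantile normalization, a variance trend with a robust prior, a filter at the silent level, fits of only the groups compared, the replicate number as a block, and leaving out each array.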

Additional observations from a re-analysis of the deposited data

Results flagged for a closer look

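The effect of a PAC in resting cells was set against its effect in cells with LPS, and limma's test of the interaction passed for 7 members with medium PAC and 3 with high PAC. Each value is the effect with LPS minus the effect in resting cells, on the deposited log2 scale. Where the signal differs between the states, it also depends on that scale being even.

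With medium PAC the difference was positive for Hk1 (1.28, adjusted p = 0.0017), Tpi1 (0.82, 0.026) and Bnip3l (1.55, 3.5e-06). It was negative for Pfkfb3 (-4.13, 9.3e-10), Slc2a1 (-0.98, 0.00013), Ddit4 (-1.80, 0.013) and Adm (-3.53, 9.1e-06). With high PAC it was 1.21 for Bnip3l (0.00031), -1.50 for Pfkfb3 (0.00076) and -2.17 for Adm (0.0061). The resting means of Adm lay below the silent level of 4.73, so no difference between the states is read for it. Those of Ddit4, at 5.27 to 5.88, lay little above that level, which left little room for a resting fall. The means of Slc2a1 with LPS, at 17.61 to 17.90, lay above 16.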

How the results depend on the processing

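Of 66 changes of at least 1, recomputed under every alternative, none reversed, 771 values kept their call and 21 lost it. Counts of members called moved by over 1.5 times in these cases. Fits of only the groups compared, with fewer arrays, called 2 with high PAC against control, 0 with low PAC + LPS and 5 with high PAC + LPS against LPS, 2 for high against low PAC, 0 for medium against high PAC, 3 for high against low PAC with LPS and 1 for medium against high PAC with LPS. A variance trend with a robust prior called 1 with low PAC, 14 for medium against low PAC, 10 for high against low PAC, 15 for the interaction of medium PAC and 7 for that of high PAC. The filter at the silent level called 1 with low PAC (Ndrg1) and 10 for medium against low PAC. Without the 3 resting arrays high in Il1b, a choice made after the data were seen, 3 were called with high PAC, 2 for high against low PAC and 0 for medium against high PAC. The causes were not tested. The share of all features called is not given for the alternative fits or for those without the arrays high in Il1b. Their counts are therefore not read as results about the members. Leaving out single arrays gave 0 to 1 for low PAC + LPS, 3 to 4 for high against low PAC and 4 to 7 for high against low PAC with LPS.

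The replicate number as a block called 25 members with LPS, 8 with medium PAC and 16 with medium PAC + LPS, losing Tpi1 and Gapdh there, Pgam1 with high PAC + LPS (12 called) and Slc2a1 for high against low PAC (4 called). Same-numbered arrays did not deviate together (correlations of -0.07 to 0.08 over 84 pairs, none over 0.1), and 8 of 24 arrays correlated best with their own number. No shared effect of the number was therefore seen. Whether same-numbered samples were handled together cannot be told from these correlations. Quantile normalization moved the median of all features by under 0.1 in every comparison. Signal over background ran from 6.11 to 6.65, and Egln3, P4ha2 and resting Adm lay too near the silent level to read changes from. Resting Ddit4 lay little above it, which limits what its interaction can show.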
